A study of Mus musculus with 13 samples.

Results

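Heat shock proteins and their DNAJ co-chaperones were followed in aortas of male C57BL/6 mice, as the 70 of 21225 genes on the array whose symbols carry an Hspa, Hspb, Hspd1, Hspe1, Hsph1, Hsp90 or Dnaja, Dnajb or Dnajc name. The study asked how vascular mRNAs change with age and whether the mineralocorticoid receptor of smooth muscle cells takes part. Total aortic RNA was hybridised to 13 arrays in 4 groups: 3 from aged knockout mice, 4 from aged MR-intact mice, 3 from young knockout mice and 3 from young MR-intact mice. Aged mice were 12 months old, and young mice 3 to 4 months old by the design text, or 3 months by the extraction protocol. Knockout mice lack the mineralocorticoid receptor, encoded by Nr3c2, in smooth muscle cells only, so other aortic cells keep it. MR-intact mice are labelled wildtype. The sources used here do not name the driver of the deletion, and they name no treatment. The labels do not say whether each array is a separate mouse, and p-values therefore measure the spread between these arrays only. The letter in the sample titles differs between aged and young arrays, and whatever it marks cannot be told apart from age.

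Heat shock proteins are chaperones, which bind unfolded or partly folded proteins and help them to fold, to reassemble or to be degraded. HSP70 proteins hold and release their clients in cycles of ATP hydrolysis that J-domain (DNAJ) proteins start and HSP110 proteins reset. HSP90 proteins act later, on nearly folded clients, among them steroid receptors such as the mineralocorticoid receptor. Chaperonins enclose clients in a chamber, and small heat shock proteins keep them from clumping without using ATP. Heat or misfolded protein activates heat shock factor, which binds repeats of GAA and its complement in the promoters of many of these genes.

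The 70 genes comprised 10 of the HSP70 family, 3 HSP110, 3 HSP90, 2 mitochondrial chaperonin genes, 6 small heat shock proteins, 4 DNAJA, 13 DNAJB and 28 DNAJC genes. The last gene, Hspb11, carries a small heat shock protein name but encodes a part of the transport machinery of cilia. Hspa1b and Hspb1 are not analysed here. Of the members, 3 (Dnajb7, Dnajc5b and Dnajc5g) lay below the lower quartile of every array's values, where an array separates signal from background poorly. The family was proposed with results of these data in view, so its values are a description of the family and its calls are not independent evidence for having chosen it.

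Promoter windows of 300 bases, from 250 before to 50 after the start of transcription, were available from RefSeq (GRCm38.p6) for 56 of the 70 members. The members with no window were Dnajc2, Dnajc5, Dnajc5b, Dnajc11, Dnajc12, Dnajc18, Dnajc22, Dnajc30, Hsp90aa1, Hsp90ab1, Hspa8, Hspa9, Hspa13 and Hspb2. A strict heat shock element was searched on both strands as GAA, TTC and GAA, or TTC, GAA and TTC, with any 2 bases between neighbouring units. It was found in 4 members (7.14% of 56), against 0.662% of the 27025 mouse genes with a window. These 4 were Hspe1, Hspd1, Hsph1 and Dnajb6. The endoplasmic reticulum stress element, which the unfolded protein response uses, was searched on both strands as CCAAT and CCACG with any 9 bases between them. It was found in 3 members (5.36%), Hspa5, Dnajc3 and Hsp90b1, against 0.137% of all genes. The windows of the members below are printed because the results return to them, with the matching letters in capitals. Those of Hspe1 (chr1:55087898-55088197, plus strand), Hsph1 (chr5:149636266-149636565, minus strand) and Dnajb6 (chr5:29735648-29735947, plus strand) hold the heat shock element. That of Hspa5 (chr2:34771840-34772139, plus strand) holds the other element.
Hspe1: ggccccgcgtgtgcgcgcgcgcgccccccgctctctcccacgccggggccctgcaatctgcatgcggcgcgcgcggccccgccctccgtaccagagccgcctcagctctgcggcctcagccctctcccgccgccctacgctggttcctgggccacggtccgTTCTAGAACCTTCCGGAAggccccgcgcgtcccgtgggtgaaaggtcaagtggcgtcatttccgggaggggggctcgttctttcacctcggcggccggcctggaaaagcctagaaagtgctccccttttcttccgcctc
Hsph1: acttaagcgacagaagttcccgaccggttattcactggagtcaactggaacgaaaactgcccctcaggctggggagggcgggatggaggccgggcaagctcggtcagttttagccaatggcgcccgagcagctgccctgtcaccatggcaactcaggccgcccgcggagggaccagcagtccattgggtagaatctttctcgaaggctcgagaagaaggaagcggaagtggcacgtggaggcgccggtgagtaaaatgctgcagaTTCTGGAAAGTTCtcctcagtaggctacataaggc
Dnajb6: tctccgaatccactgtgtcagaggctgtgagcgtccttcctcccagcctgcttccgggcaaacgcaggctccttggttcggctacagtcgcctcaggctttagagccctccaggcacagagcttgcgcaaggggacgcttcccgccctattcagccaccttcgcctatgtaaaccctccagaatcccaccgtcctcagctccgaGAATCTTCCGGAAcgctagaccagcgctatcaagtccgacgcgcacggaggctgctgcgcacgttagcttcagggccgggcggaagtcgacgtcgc
Hspa5: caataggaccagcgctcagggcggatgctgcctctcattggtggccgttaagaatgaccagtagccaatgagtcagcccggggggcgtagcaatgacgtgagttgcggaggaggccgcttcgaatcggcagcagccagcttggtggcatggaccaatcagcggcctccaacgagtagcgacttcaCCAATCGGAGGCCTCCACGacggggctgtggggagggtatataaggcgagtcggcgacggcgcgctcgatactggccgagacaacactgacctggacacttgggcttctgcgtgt
In Hspe1 a pair of overlapping matches began at -89 and -84 relative to the start. A window of Hspe1's neighbour Hspd1, on the opposite strand, shared 285 of its bases with this one, so the same letters stand in both. In the printed windows the match in Hsph1 began at 16, that in Dnajb6 at -46 and that in Hspa5 at -65. Hsph1 and Dnajb6 each had another window with a different start, relative to which the match began at 37 and at -127. A match describes letters only.

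Values are log2 intensities per gene, and differences were tested with limma on all 21225 genes, with p-values adjusted by the Benjamini-Hochberg method over all of them and called under 0.05. In aged against young knockout aorta 1 of the 70 members was called (1.43%), against 0.735% of all genes. It was Hspa8, which rose, as did 0.316% of all genes. At an unadjusted p under 0.05 there were 13 members (18.6%), against 15.8% of all genes, a share close to that background. Of these, 10 were higher (14.3%, against 9.07%) and 3 lower (4.29%, against 6.76%). The groups did not overlap for 10 members that were higher in the aged knockout arrays (14.3%, against 8% of all genes) and for 2 that were lower (2.86%, against 8.38%). In aged aorta, 0 of 70 members were called between knockout and MR-intact mice, against 0.0565% of all genes (0.0377% higher and 0.0188% lower), and 16 (22.9%, against 17.6%) had an unadjusted p under 0.05. Of these 16, 7 were higher in knockout (10%, against 8.58%) and 9 lower (12.9%, against 9.06%). The groups there did not overlap for 10 members (14.3%, against 10.4%), 4 of them higher (5.71%, against 5.25%) and 6 lower (8.57%, against 5.11%). The family as a whole hardly shifted: the median difference over the 70 members was 0.04 for age in knockout mice and -0.00 for knockout in aged mice, beside 0.00 and 0.02 over all genes.

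**Figure D1:**
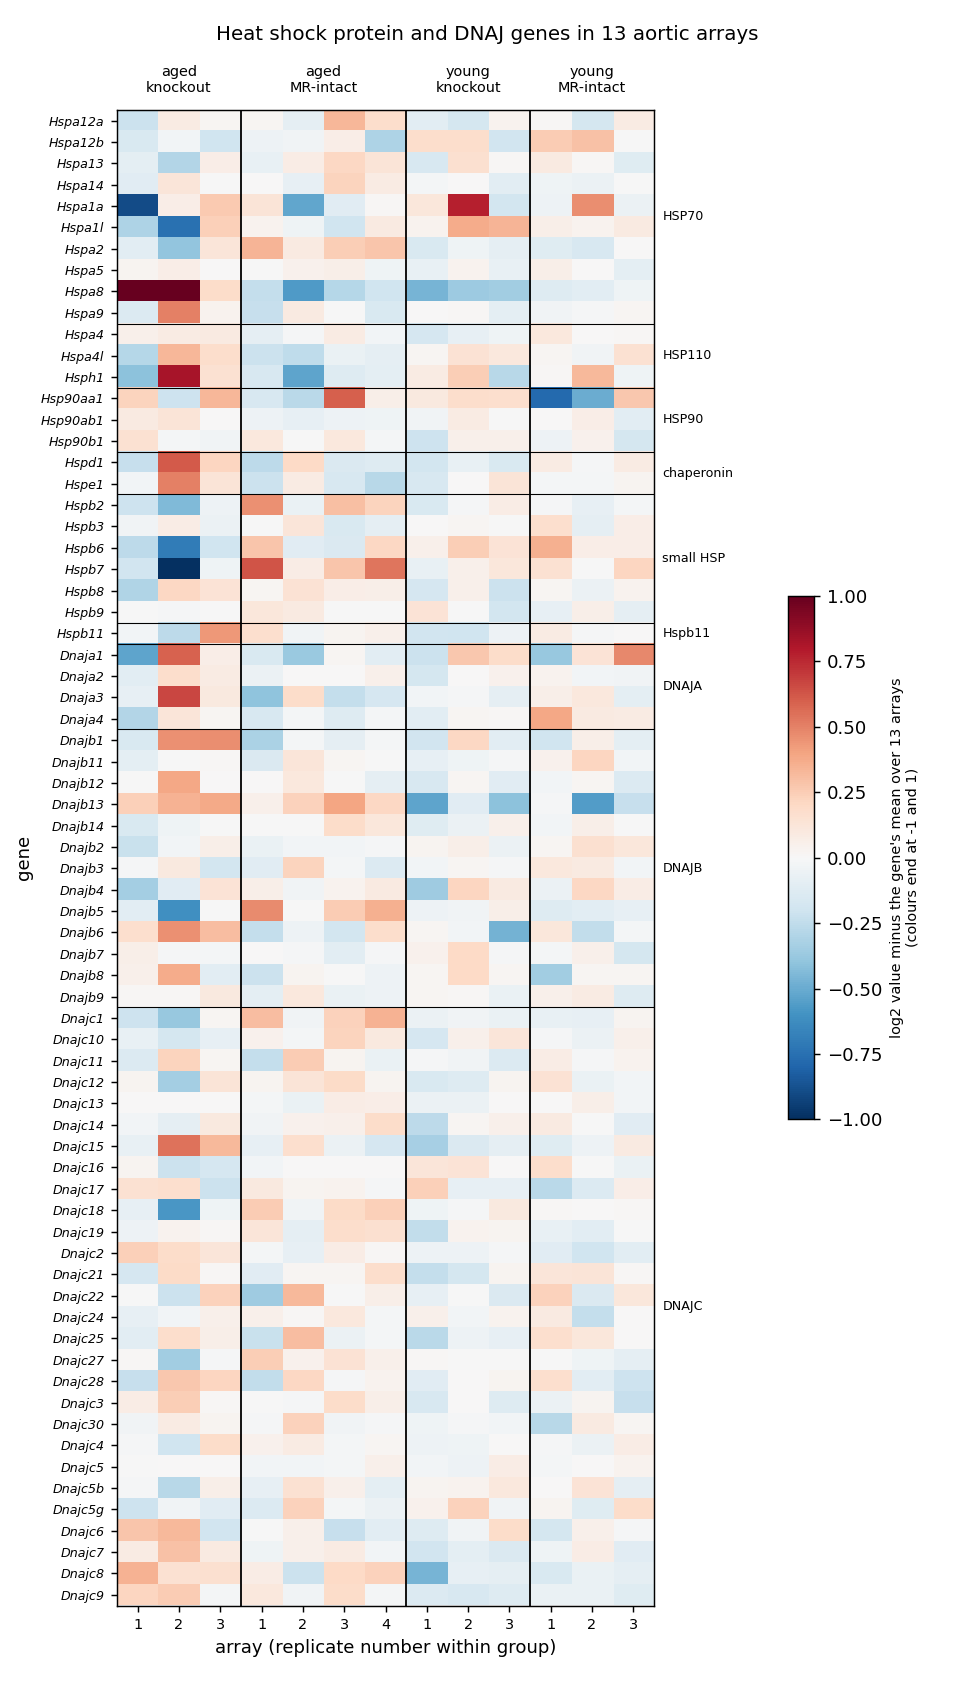
Log2 value of each of the 70 members (rows, grouped by class) on each of the 13 arrays (columns), minus that gene's mean over the 13 arrays, with colours ending at -1 and 1. Hspa8 is above its mean on all 3 aged knockout arrays, and the second of these arrays holds the highest value for 22 of the 70 members and the lowest for 16.

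Hspa8 encodes the constitutive cytosolic HSP70, which folds new proteins, strips clathrin from vesicles and passes proteins to lysosomes. It measured 11.88, 12.45 and 11.06 on the aged knockout arrays and 10.64, 10.31, 10.60 and 10.68 on the aged MR-intact arrays. On the young knockout arrays it measured 10.42, 10.52 and 10.54, and on the young MR-intact arrays 10.76, 10.78 and 10.84. Every aged knockout array was therefore above all 10 others, while those 10 stayed within 10.31 to 10.84. The 3 aged knockout values also spread more widely (11.80 ± 0.70) than the aged MR-intact (10.56 ± 0.17), the young knockout (10.49 ± 0.06) or the young MR-intact values (10.79 ± 0.04; mean ± SD, n = 3, 4, 3 and 3).

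Between aged and young knockout aorta the difference in Hspa8 was 1.31 ± 0.25 (SE), or 2.48-fold, with a limma adjusted p of 0.038. The call was lost without aged knockout array 1 (1.27, adjusted p 0.0538) and without young knockout array 1, 2 or 3 (adjusted p 0.148, 0.12 and 0.055). It was kept without aged knockout array 2, the one with the highest value, at a difference of 0.98 (adjusted p 0.037). With array 3 as the sole aged knockout array the difference was 0.57, the smallest of 16 alternatives. With the spread taken from the knockout groups alone the adjusted p was 0.373. Between aged knockout and aged MR-intact aorta Hspa8 differed by 1.24 ± 0.23 (2.36-fold, adjusted p 0.0587), just short of a call. It was called there without aged knockout array 3 (1.61, adjusted p 0.000654). In MR-intact mice the difference with age was -0.23 ± 0.23 (adjusted p 0.878). The test of whether age acted differently in the 2 genotypes gave a difference of 1.54 ± 0.34 with an adjusted p of 0.609, and without aged knockout array 3 it gave 1.90 with an adjusted p of 0.00917.

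Lymphocyte markers were also higher on average in aged knockout aorta. Aortic RNA is a mixture in which more cells of a type and more RNA per cell cannot be told apart. The mean of 10 B lymphocyte and plasma cell markers was 8.61, 6.97 and 6.91 on the aged knockout arrays, against 5.22, 5.17 and 6.59 on the young knockout arrays. On the MR-intact arrays that mean lay between 5.10 and 5.72. The mean of the T lymphocyte markers was 7.35, 6.64 and 5.87 on the aged knockout arrays, against 5.08, 5.35 and 6.01 on the young knockout arrays. On the MR-intact arrays it lay between 5.26 and 5.85. All 10 B lymphocyte and all 8 T lymphocyte markers were above 0 for aged against young knockout aorta, with 1 of each list called. Hspa8 was highest on array 2, whereas both lymphocyte means were highest on array 1. Their part in the Hspa8 result was not tested.

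The other HSP70 genes did not follow Hspa8. Hspa1a, the classic heat-inducible HSP70, measured 7.54, 8.51 and 8.70 in aged knockout aorta, against 8.55, 9.22 and 8.25 in young knockout aorta. In MR-intact aorta it measured 8.56, 7.92, 8.33 and 8.45 at 12 months, against 8.39, 8.90 and 8.38 in young mice. The groups overlapped in both genotypes, and aged knockout array 1, with a high Hspa8, held the lowest Hspa1a of all 13 arrays. The difference with age in knockout mice was -0.42 (adjusted p 0.561), and it was 0.03 with aged knockout array 3 as the sole aged knockout array. Hspa1l, whose protein is made mainly in testis, measured 5.39, 4.95 and 5.94 in aged knockout aorta, against 5.74, 6.07 and 6.04 in young knockout aorta (difference -0.52, adjusted p 0.197). It was called lower without aged knockout array 3 (-0.78, adjusted p 0.0141).

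Hspa2, another HSP70 with a main role in sperm formation, was higher on aged MR-intact arrays (7.64, 7.39, 7.54 and 7.57) than on any young MR-intact array (7.18, 7.14 and 7.30). On aged knockout arrays it measured 7.19, 6.90 and 7.42, and on young knockout arrays 7.15, 7.26 and 7.21. The differences were 0.33 with age in MR-intact mice (adjusted p 0.354) and -0.36 for aged knockout against aged MR-intact mice (adjusted p 0.114), neither of them called. Hspa5, or BiP, the HSP70 of the endoplasmic reticulum whose promoter is printed above, stayed within 10.54 to 10.70 on all 13 arrays. Hspa9, or mortalin, the HSP70 of mitochondria, measured 10.93, 11.57 and 11.10 in aged knockout aorta, against 10.83, 11.15, 11.06 and 10.91 in aged MR-intact aorta. These groups overlapped (difference 0.21). Hspa12b, an atypical HSP70 of endothelial cells, was within 6.52 to 7.12 on all arrays.

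HSP110 proteins exchange the nucleotide of HSP70 and so reset its cycle. Hsph1, the heat-inducible member, measured 7.43, 8.66 and 7.99 in aged knockout aorta, against 7.68, 7.31, 7.71 and 7.74 in aged MR-intact aorta. In young aorta it measured 7.92, 8.09 and 7.56 in knockout mice, against 7.85, 8.16 and 7.79 in MR-intact mice. Every pair of these groups overlapped except aged and young MR-intact aorta, where all 4 aged values lay below the 3 young ones (-0.32, adjusted p 0.793). Aged knockout aorta differed from aged MR-intact aorta by 0.42 (adjusted p 0.381), and by -0.18 with array 1 as the sole aged knockout array. Hspa4 differed by 0.17 with age in knockout mice (adjusted p 0.232), with 9.58, 9.62 and 9.62 on the aged and 9.37, 9.46 and 9.49 on the young arrays. Hspa4l, the third gene of this class, overlapped between these groups (7.10, 7.72 and 7.56 against 7.41, 7.53 and 7.49).

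Of the 3 HSP90 genes, 2 varied little. Hsp90ab1, the constitutive cytosolic form, lay within 11.02 to 11.26 on all 13 arrays, and Hsp90b1, the form of the endoplasmic reticulum, differed by 0.11 or less in each of the 4 comparisons of groups. Hsp90aa1, the inducible cytosolic form, varied more, at 6.30, 5.86 and 6.40 in aged knockout aorta, against 5.91, 5.80, 6.66 and 6.13 in aged MR-intact aorta. In young aorta it measured 6.17, 6.24 and 6.24 in knockout mice, against 5.30, 5.57 and 6.34 in MR-intact mice. The difference of 0.48 ± 0.26 between young knockout and young MR-intact aorta was the largest of any member in that comparison, its groups overlapped, and its adjusted p was 1.

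**Figure D2:**
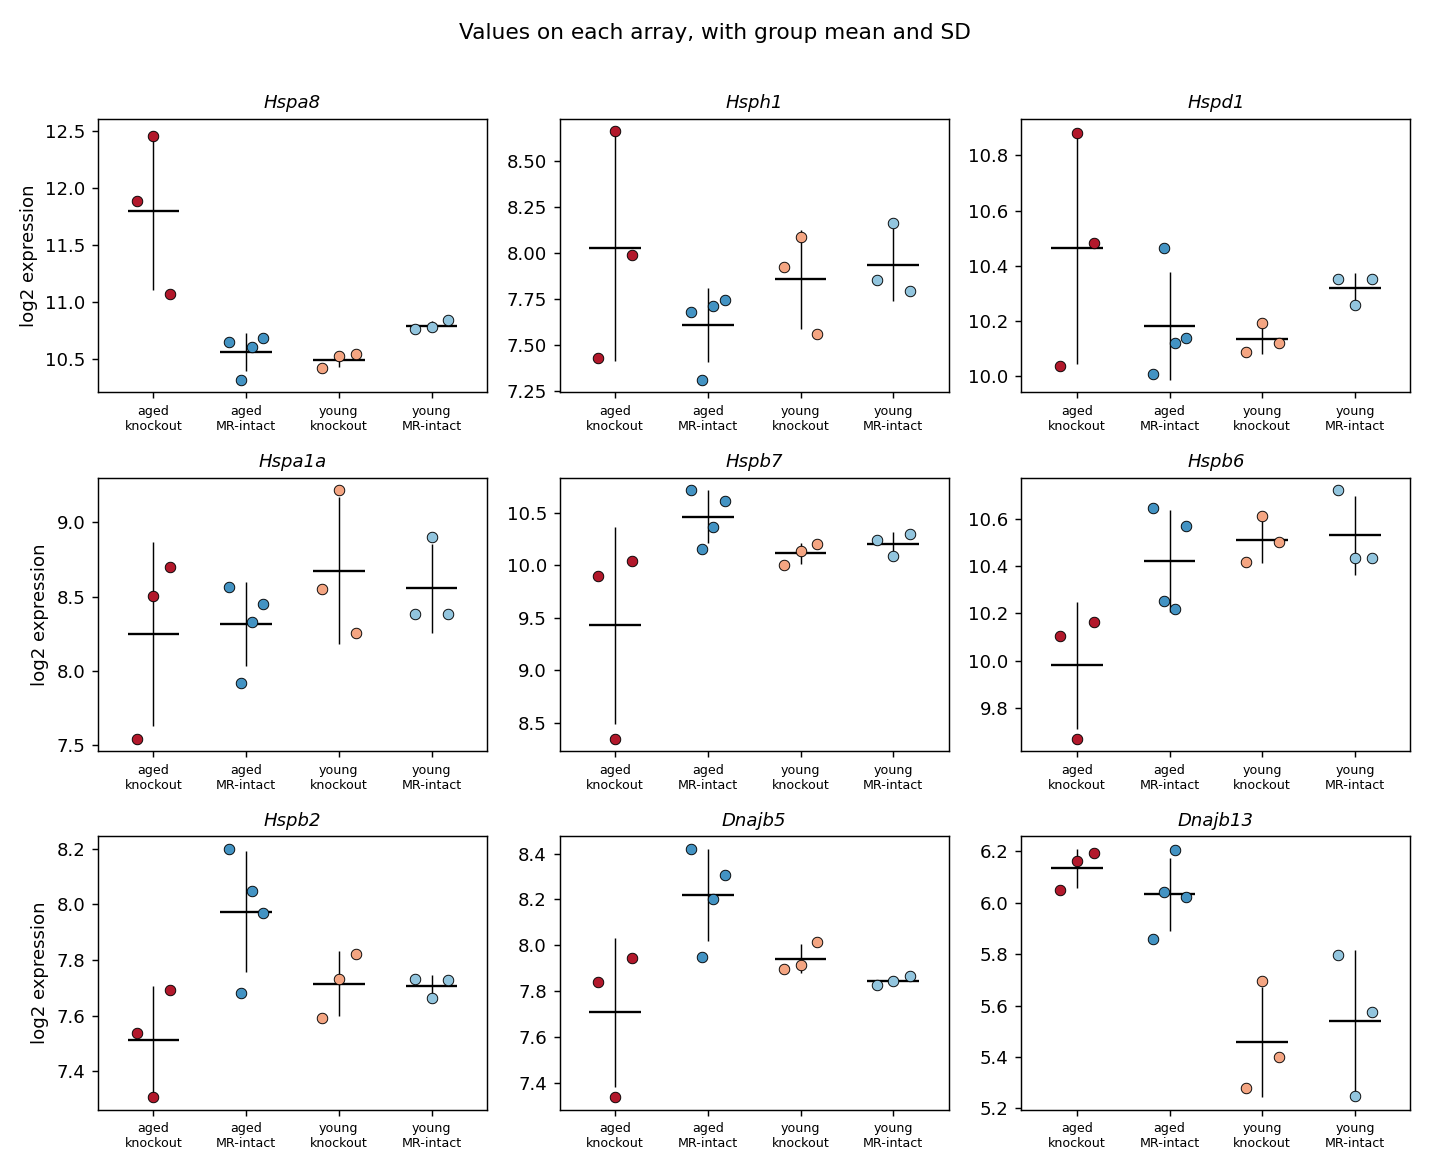
Log2 values of 9 members in the 4 groups, aged knockout first, with a point per array, a bar at the mean and a line for the SD. Hspa8 is above all other arrays on the 3 aged knockout arrays, Hspb7 has a single low array at 8.35, and Dnajb13 is higher at 12 months in both genotypes.

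Mitochondrial chaperones were higher on average in aged knockout aorta, with no member called. Hspd1 (HSP60) and Hspe1 (HSP10) form the chamber and the lid of the mitochondrial chaperonin. Hspd1 measured 10.04, 10.88 and 10.48 on aged knockout arrays, against 10.09, 10.19 and 10.12 on young knockout arrays (0.33, adjusted p 0.373). The difference was -0.10 with array 1 as the sole aged knockout array. Hspe1 measured 8.43, 8.97 and 8.59 on aged knockout arrays, against 8.25, 8.55, 8.30 and 8.19 on aged MR-intact arrays (0.34, adjusted p 0.174). Both genes were highest on aged knockout array 2, and they share the promoter printed above.

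Of the other mitochondrial members, Dnaja3, the J-domain partner of Hspa9, measured 9.09, 9.84 and 9.27 in aged knockout aorta, against 8.77 to 9.35 in the 4 aged MR-intact aortas (0.38, adjusted p 0.245). Dnajc15, a J-domain protein of the inner membrane, measured 9.67, 10.29 and 10.07 in aged knockout aorta, against 9.41, 9.60 and 9.65 in young knockout aorta. These groups did not overlap (0.45 ± 0.14, adjusted p 0.142), and without aged knockout array 1 the gene was called (0.62, adjusted p 0.031). All 8 mitochondrial members had a positive difference with age in knockout mice, with a median of 0.19, and 0 of the 8 were called in any comparison. The mean over the 8 was 8.97, 9.46 and 9.17 on aged knockout arrays, against 8.94, 9.04 and 9.01 on young knockout arrays, so array 2 stood highest. The mean of the brown and white adipocyte markers was also highest there. It was 10.71, 11.26 and 11.06 on aged knockout arrays, against 10.78, 10.79 and 10.85 on young knockout arrays. The part of fat tissue RNA in the mitochondrial values was not tested.

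Of the small heat shock proteins of muscle, Hspb7, Hspb2 and Hspb6 pointed the other way in aged knockout aorta. Hspb7, known from heart and vessels, measured 9.89, 8.35 and 10.04 on aged knockout arrays, against 10.72, 10.16, 10.36 and 10.62 on aged MR-intact arrays. The 3 values lay below the 4, the difference was -1.03 ± 0.31, and the adjusted p was 0.119. Hspb2, a partner of Hspb3 in muscle, measured 7.54, 7.31 and 7.69 on aged knockout arrays, against 8.20, 7.68, 8.05 and 7.97 on aged MR-intact arrays (-0.46 ± 0.12, adjusted p 0.0876). Hspb6, or HSP20, whose phosphorylation accompanies relaxation of smooth muscle, measured 10.11, 9.67 and 10.16 on aged knockout arrays, against 10.64, 10.25, 10.22 and 10.57 on aged MR-intact arrays (-0.44 ± 0.14, adjusted p 0.133). Against young knockout aorta (10.42, 10.61 and 10.50), Hspb6 differed by -0.53 ± 0.15 (adjusted p 0.118), again without overlap.

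None of these 3 was called, and each was lowest on aged knockout array 2. The calls depended on single arrays. Without aged knockout array 3, Hspb7 and Hspb2 were called lower against aged MR-intact aorta, among 8 members called in all (11.4%, against 6.79% of all genes), 1 higher and 7 lower. Without aged MR-intact array 2, 2 members were called (2.86%, against 0.923% of all genes), Hspb2 (-0.56, adjusted p 0.0436) and Dnajc1. Hspb8, the partner of Bag3 in clearing damaged muscle proteins, measured 8.94, 9.46 and 9.39 on aged knockout arrays, against 9.27, 9.39, 9.31 and 9.31 on aged MR-intact arrays. These overlapped, and the difference was -0.06. Hspb3 measured 4.13, 4.24 and 4.11 on aged knockout arrays, against 4.16, 4.29, 4.01 and 4.08 on aged MR-intact arrays, a difference of 0.02. Over the 5 small heat shock proteins of muscle the median difference between aged knockout and aged MR-intact aorta was -0.44, the value of Hspb6. Of the 5, 4 were below 0 and 1 above.

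Smooth muscle markers moved with Hspb7, Hspb2 and Hspb6. In aged knockout against aged MR-intact aorta 7 of the 8 smooth muscle markers were lower, with a median difference of -0.40 and 0 called. The mean of the 8 was 10.57, 9.93 and 10.47 on aged knockout arrays, against 10.87, 10.48, 10.67 and 10.81 on aged MR-intact arrays. It was lowest on array 2, where Cnn1, a contractile protein, measured 10.12 beside 11.47 and 11.48 on the other aged knockout arrays. Cryab, a small heat shock protein of muscle that lies outside the symbol rule, measured 9.76, 9.31 and 10.07 on aged knockout arrays, against 10.39, 9.83, 10.27 and 10.20 on aged MR-intact arrays. Markers of heart muscle ranged from 5.99 to 6.60 in their mean on the 7 aged arrays and from 6.30 to 8.84 on the 6 young arrays, and those of skeletal muscle from 4.83 to 5.94 and from 5.16 to 7.89. The part of smooth, heart or skeletal muscle RNA in the small heat shock protein values was not tested.

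**Figure D3:**
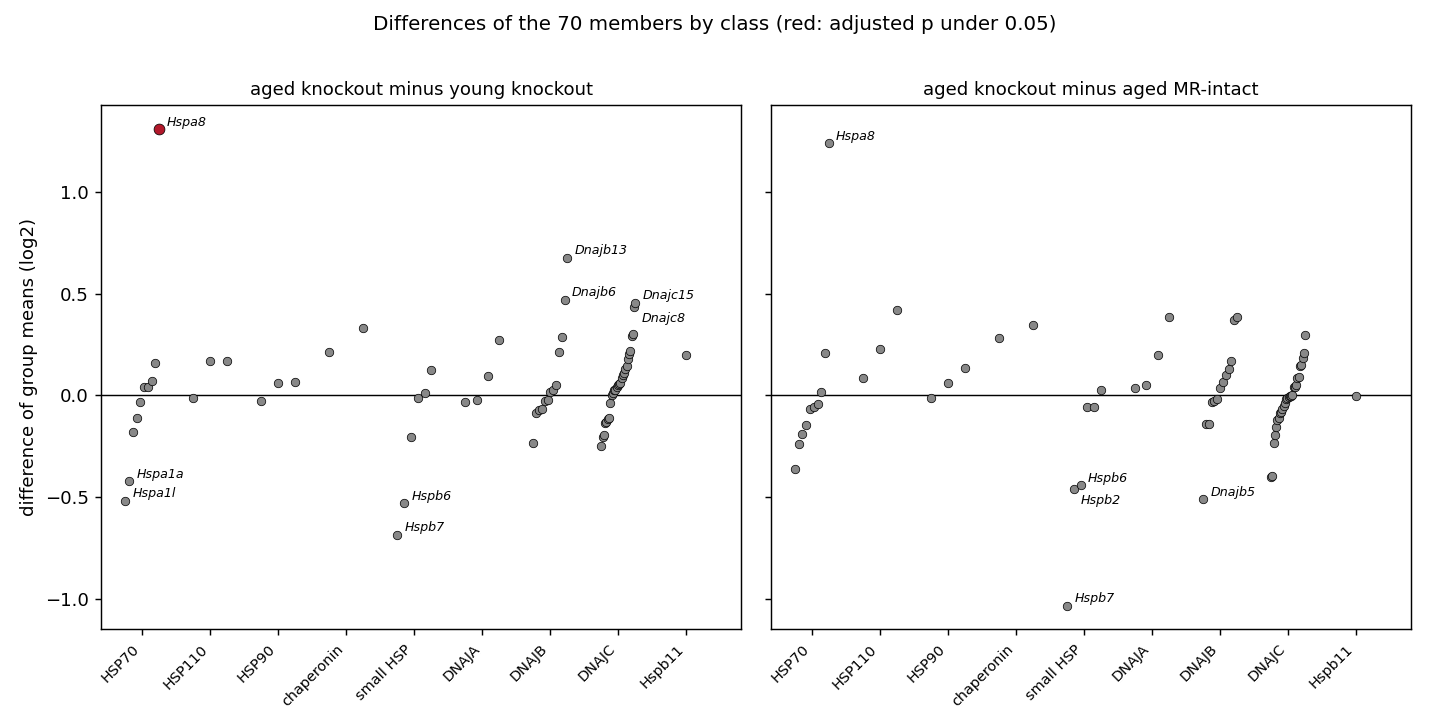
Log2 difference of each member by class, for aged minus young knockout aorta (left) and aged knockout minus aged MR-intact aorta (right). The left panel has 1 called member, Hspa8 at 1.31, drawn in red, and the right panel has 0, with Hspa8 at 1.24 and Hspb7 at -1.03 as its ends.

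Among the DNAJB genes, Dnajb13 came closest to a call with age. It encodes a J-domain protein of the radial spokes in cilia and sperm tails. It measured 6.05, 6.16 and 6.19 on aged knockout arrays, against 5.28, 5.70 and 5.40 on young knockout arrays. In MR-intact mice it measured 5.86, 6.04, 6.21 and 6.02 on aged arrays, against 5.80, 5.25 and 5.58 on young arrays. Aged and young arrays did not overlap in either genotype. The differences were 0.68 ± 0.14 in knockout mice (adjusted p 0.0513) and 0.49 ± 0.13 in MR-intact mice (adjusted p 0.233), and aged knockout aorta differed from aged MR-intact aorta by 0.10. Without aged knockout array 3 the difference in knockout mice was called, at an adjusted p of 0.0486.

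Dnajb1, the main cytosolic J-domain partner of inducible HSP70, measured 6.78, 7.39 and 7.40 on aged knockout arrays, against 6.61, 6.92, 6.84 and 6.91 on aged MR-intact arrays. These overlapped (0.37, adjusted p 0.225), and the difference was -0.04 with array 1 as the sole aged knockout array. Dnajb6, which keeps polyglutamine proteins from aggregating and whose promoter holds a heat shock element, measured 4.90, 5.18 and 5.03 on aged knockout arrays, against 4.75, 4.70 and 4.25 on young knockout arrays. These did not overlap (0.47 ± 0.15, adjusted p 0.15). Dnajb5, a close relative of Dnajb1, measured 7.84, 7.34 and 7.94 on aged knockout arrays, against 8.42, 7.95, 8.20 and 8.31 on aged MR-intact arrays. All 3 lay below the 4 (-0.51 ± 0.14, adjusted p 0.0943). In MR-intact mice all 4 aged values of Dnajb5 lay above the 3 young ones of 7.82, 7.84 and 7.87 (0.38, adjusted p 0.431). The young knockout arrays measured 7.90, 7.91 and 8.01, so that knockout lay above MR-intact in young aorta and below it in aged aorta.

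The DNAJA genes Dnaja1 and Dnaja4, both cytosolic partners of HSP70, overlapped between aged and young knockout aorta. Dnaja1 measured 6.04, 7.16 and 6.64 on the aged arrays, against 6.36, 6.84 and 6.75 on the young arrays. Dnaja4 measured 6.72, 7.13 and 7.02 on the aged arrays, against 6.90, 7.02 and 7.02 on the young arrays. In that comparison neither differed by more than the spread between its own arrays. In MR-intact mice Dnaja4 measured 6.84, 6.98, 6.87 and 6.98 on aged arrays, against 7.39, 7.10 and 7.08 on young arrays. The aged values lay below the young ones (-0.27). The young knockout values of Dnaja4 also lay below the young MR-intact ones (-0.21), and neither difference was called.

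Among the DNAJC genes several were separated by age in knockout aorta without a call. Dnajc8, found with the splicing machinery, measured 7.24, 7.04 and 7.05 on aged arrays, against 6.42, 6.81 and 6.80 on young arrays (0.43 ± 0.13, adjusted p 0.129). Dnajc7, which binds both HSP70 and HSP90, measured 7.98 to 8.20 on aged arrays, against 7.71, 7.81 and 7.76 on young arrays (0.30 ± 0.08, adjusted p 0.1). Dnajc9, a chaperone of histones, measured 6.66, 6.70 and 6.43 on aged arrays, against 6.31, 6.29 and 6.32 on young arrays (0.29 ± 0.08, adjusted p 0.126). For all 3 genes every aged knockout array was above every young knockout array.

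Dnajc2, a J-domain protein that sits at the ribosome beside Hspa14, was ordered by group. It measured 6.89, 6.83 and 6.77 in aged knockout aorta and 6.63, 6.57, 6.72 and 6.66 in aged MR-intact aorta. In young aorta it measured 6.60, 6.60 and 6.64 in knockout mice and 6.54, 6.45 and 6.55 in MR-intact mice. Neither age nor genotype groups overlapped, although no difference was called. The differences were 0.22 ± 0.06 for age in knockout mice (adjusted p 0.13) and 0.19 for knockout in aged mice (adjusted p 0.142).

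Dnajc1, a J-domain protein of the endoplasmic reticulum membrane, measured 6.98, 6.81 and 7.21 on aged knockout arrays, against 7.49, 7.15, 7.41 and 7.54 on aged MR-intact arrays (-0.40 ± 0.10, adjusted p 0.0893). It was called lower without aged MR-intact array 2 (-0.48, adjusted p 0.0451) and without aged knockout array 3. Dnajc18 measured 7.10, 6.60 and 7.13 against 7.43, 7.14, 7.37 and 7.42 in the same groups (-0.40, adjusted p 0.116). Dnajc3, an inhibitor of a kinase that halts translation in endoplasmic reticulum stress, differed by 0.20 with age in knockout mice (adjusted p 0.3). Dnajc6, or auxilin, which brings Hspa8 to clathrin, measured 5.10, 5.14 and 4.63 on aged knockout arrays, against 4.69, 4.79 and 5.01 on young knockout arrays, and these overlapped.

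In the remaining comparisons 0 members were called. For aged against young MR-intact aorta the background was 0.236% of all genes (0.179% higher and 0.0565% lower). With an unadjusted p under 0.05 there were 7 members (10%, against 8.63%), 5 higher (against 4.49% of all genes) and 2 lower (against 4.14%). The groups did not overlap for 11 members (15.7%, against 10.9%), 6 higher (against 6.05%) and 5 lower (against 4.8%). For young knockout against young MR-intact aorta the background was 0%, and 0 members, against 2.59% of all genes, had an unadjusted p under 0.05. There the groups did not overlap for 10 members (14.3%, against 9.48%), 2 higher (against 5.43%) and 8 lower in knockout (11.4%, against 4.06%). Hspa8 was one of the 8, at 10.42, 10.52 and 10.54 in young knockout aorta, against 10.76, 10.78 and 10.84 in young MR-intact aorta (-0.30 ± 0.25, adjusted p 1). For the difference in aging between genotypes the background was 0%, and 10 members (14.3%, against 8.12%) had an unadjusted p under 0.05, 5 of them positive (against 3.59%) and 5 negative (against 4.53%). These comparisons share arrays with each other and with those above.

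A list of 13 genes labelled heat-inducible had 11 measured members. Among them were Hspd1, Hspe1, and also Hspa8 and Hsp90ab1, described above as constitutive forms. The 11 members did not move as a block with age in knockout mice. Of these, 6 were above 0 and 5 below, with a median of 0.06. Between aged knockout and aged MR-intact aorta 9 were above 0 and 2 below, with a median of 0.23, and in MR-intact mice 1 was above 0 with age and 10 below, with a median of -0.14. Apart from Hspa8, none was called in any of these. The mean of the 11, Hspa8 included, was 8.40, 8.97 and 8.73 on aged knockout arrays, against 8.40, 8.33, 8.50 and 8.47 on aged MR-intact arrays. Aged knockout array 1 therefore lay within the MR-intact range.

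Beyond the family, 2 genes that work with chaperones were called with age in knockout aorta. Cct4, a subunit of the cytosolic chaperonin TRiC, which folds actin and tubulin, rose by 0.41 ± 0.09 (adjusted p 0.0489). It measured 8.64, 8.60 and 8.65 on aged arrays, against 8.05, 8.30 and 8.30 on young arrays. It was the only called gene of 9 in TRiC, all of which were above 0, with a median of 0.12. All 9 were above 0 with age in MR-intact aorta too, with a median of 0.09 and 0 called. Young knockout array 1 held the lowest value of all arrays for 6 of the 9. Serpinh1, or HSP47, the heat-inducible chaperone of collagen, fell by 0.45 with age in knockout aorta (adjusted p 0.0164). It measured 8.61, 8.46 and 8.65 on aged arrays, against 9.07, 9.01 and 8.98 on young arrays, and the other 9 measured genes of its list of other heat-inducible genes were not called. The collagen gene Col1a1, from the fibroblast marker list, fell by 1.15 in the same comparison. All 8 markers of that list were below 0 there, and 3 were called lower. Col1a1 was also lower with age in MR-intact aorta, at 8.94, 9.07, 8.95 and 9.10 on aged arrays, against 9.84, 10.28 and 10.15 on young arrays. The calls of Cct4 and Serpinh1 were not followed through the alternative settings. Over all genes, calls in this comparison fell from 156 to 1 with the knockout groups alone.

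Among the remaining partners 0 were called in that comparison: 0 of 5 heat shock factor genes, 0 of 27 cofactors of HSP70 and HSP90, 0 of 22 genes of the endoplasmic reticulum stress response and 0 of 16 immediate early genes. Of the 27 cofactors 8 had an unadjusted p under 0.05 (29.6%, against 15.8% of all genes), 6 of them higher and 2 lower, and the median difference of the 27 was 0.07. In the other 4 comparisons 0 genes of these lists, of TRiC and of the other heat-inducible genes were called.

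Arrays of the same group differed most in aged knockout aorta. The median SD of a member was 0.178 there, 0.118 in the aged MR-intact group, 0.0853 in the young knockout group and 0.0962 in the young MR-intact group, beside 0.148, 0.114, 0.096 and 0.0902 over all genes. Young knockout array 1 held the lowest value of all 13 arrays for 12 members (17.1%, against 9.23% of all genes), 7 of them DNAJC genes. Dnajc7, Dnajc8, Dnajc15 and Hspa4, described above as higher with age in knockout aorta, were among the 12. Aged knockout array 2 held the highest value of all 13 arrays for 22 members (31.4%, against 19.9% of all genes) and the lowest for 16 (22.9%, against 17.2%). Its 22 high members included 7 of 11 genes of the heat-inducible list and 5 of 8 mitochondrial genes, with Hspd1 and Hspe1 counted in both. Its low members included Hspb2, Hspb6 and Hspb7. Of 15 circadian clock genes the same array held the lowest value for 6 and the highest for 2, Per2 and Cry1. Other arrays were also extreme for this list. Young MR-intact array 1 held the lowest value for 5 and the highest for 3, and aged MR-intact array 4 the highest for 7. With age in MR-intact aorta 10 of the 15 had an unadjusted limma p under 0.05 (66.7%, against 8.63% of all genes). On aged knockout array 2 the clock gene Nr1d1 measured 8.82, beside 11.20 and 11.19 on the other aged knockout arrays and 10.96 to 11.44 on the remaining 10. Dbp, a clock output gene, measured 7.42 there, beside 8.94 and 9.20 on the other aged knockout arrays. Per2, a repressor in the clock, measured 8.65 there, beside 7.38 and 7.82, and Cry1, its partner, 6.97 beside 5.47 and 5.31. The 2 cold-inducible genes lay at opposite ends. Cirbp was at its lowest there, at 7.34 beside 8.08 and 7.86, and Rbm3 at its highest, at 7.62 beside 7.22 and 6.79. The mean of the liver markers was 7.64 on this array, beside 5.59 and 5.43 on the other aged knockout arrays, and between 5.04 and 6.00 on the remaining 10. The sources used here do not give the hour of collection, and the part of these differences in the chaperone values was not tested. Array medians over all genes lay within 5.85 to 5.97.

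**Figure D4:**
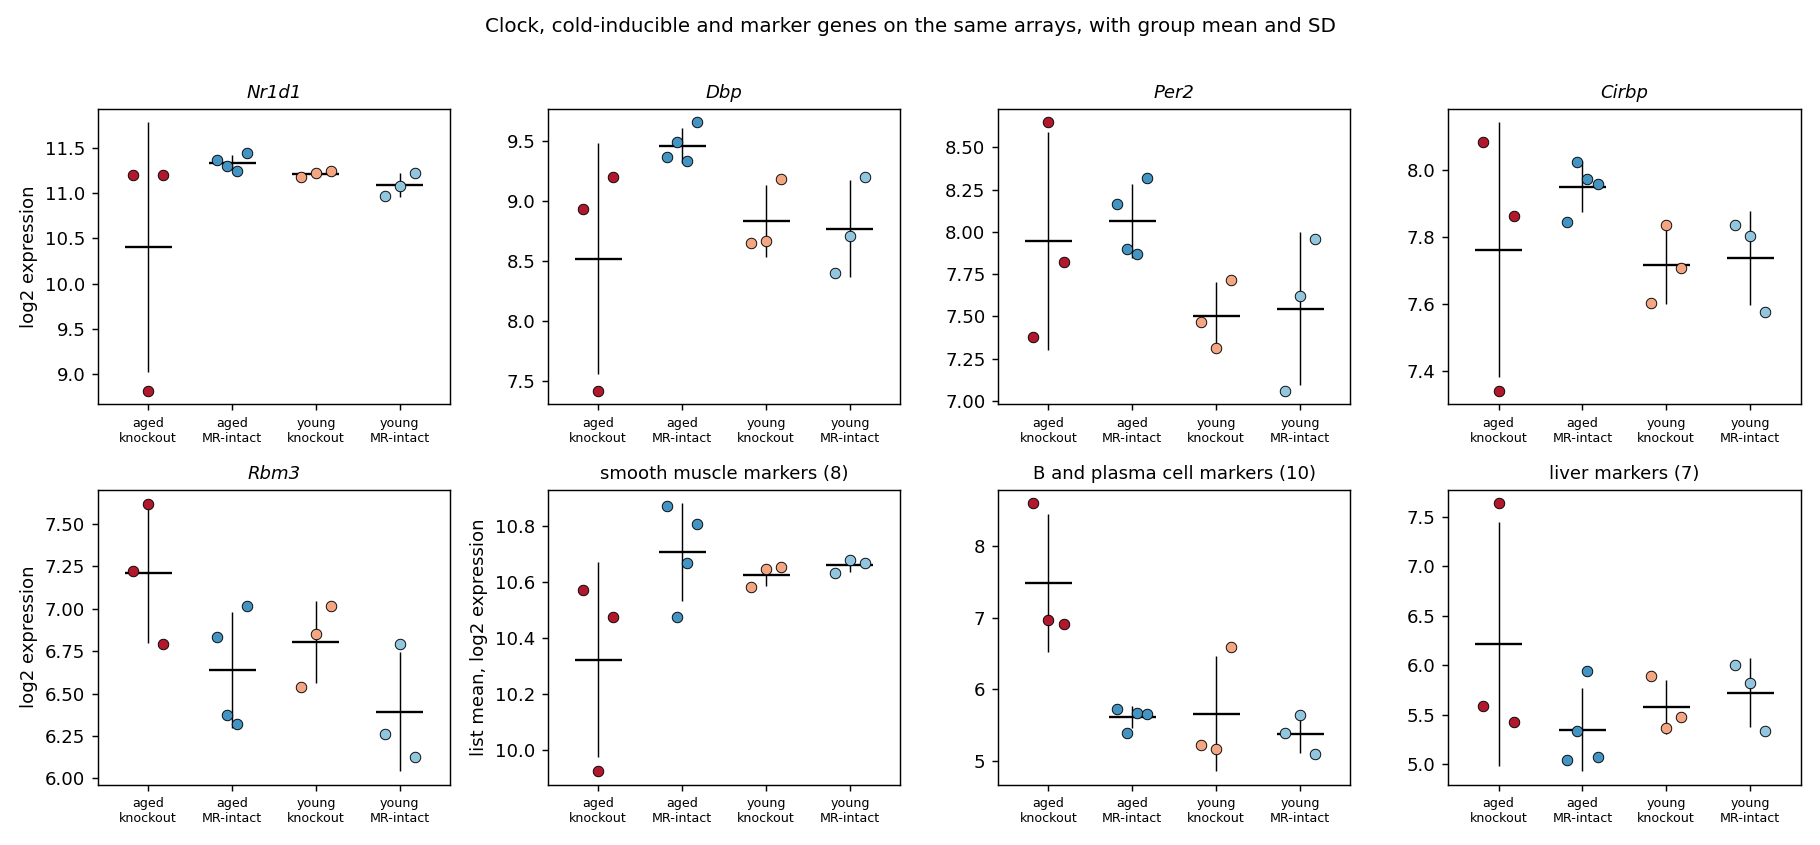
Log2 values of Nr1d1, Dbp, Per2, Cirbp and Rbm3 and the mean log2 value of the smooth muscle, B lymphocyte and plasma cell, and liver marker lists on each array, by group, aged knockout first, with a bar at the mean and a line for the SD. Aged knockout array 2 is low for Nr1d1 (8.82), Dbp (7.42), Cirbp (7.34) and smooth muscle (9.93) and high for Per2 (8.65), Rbm3 (7.62) and liver (7.64), and all 3 aged knockout arrays are high for B lymphocyte markers (6.91 to 8.61).

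The deleted gene itself, Nr3c2, measured 6.14, 6.22 and 6.58 in aged knockout aorta, against 7.12, 6.86, 6.80 and 7.24 in aged MR-intact aorta (-0.69, adjusted p 0.0599). In young aorta it measured 6.26, 6.09 and 6.42 in knockout mice, against 6.68, 6.62 and 6.69 in MR-intact mice (-0.40, adjusted p 1). Knockout and MR-intact arrays did not overlap at either age, in the direction of the labels. Smooth muscle marker Acta2 was within 12.36 to 13.03 on all arrays, as the tissue label implies. The brown fat gene Ucp1 was also high on all of them, at 12.32 to 12.75.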

How the data were processed

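Total aortic RNA was hybridised to 13 one-colour arrays with biotin label, per the labels. The authors deposited log2 values per gene, in columns headed by the number in each sample title, that had been processed with RMA, and the submitters' processing notes name affy and limma beside RMA. The sources used here do not give versions, platform or chip definition. A second deposited table held the same log2 values rounded to 2 decimals (largest difference 0.005) and served as an alternative. No normalization was added and no filter applied.

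Members were taken by symbol. Groups came from the genotype and stage labels. One model with a coefficient per group was fitted to all 21225 genes on 13 arrays with limma 3.58.1 in R 4.3.3 (9 residual and 3.41 prior degrees of freedom), and 5 comparisons were read from it: age in knockout, age in MR-intact, knockout in aged and in young mice, and the difference in aging between genotypes. Adjusted p-values are Benjamini-Hochberg over all genes. The script was tested on simulated data. The number of arrays limits the precision.

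Members and gene lists were chosen with earlier results of these data known. Named genes included all called members, most of the 6 with the largest difference in each direction of a comparison, members chosen for their roles and some further members. Dnajb8, Dnajc17, Dnajc21 and Dnajc25, among the largest differences for knockout in young mice, were not described.

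Alternatives were the rounded table, quantile scaling, centring on array medians, array weights, a trended robust prior, leaving out the dimmest tercile, the compared groups alone, leaving out each array, and each aged knockout array as the sole one of its group. Promoter windows came from RefSeq, matched by Entrez ID.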

Additional observations from a re-analysis of the deposited data

Results flagged for a closer look

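In aged MR-intact aorta, array 2 had the lowest Hsph1 at 7.31, apart from the other 3 at 7.68 to 7.74. It was the 1 such case among 29 members tested for a lone array in that group of 4, and chance gives about 1 in 20.

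Hspa8 was higher with age on every aged knockout array and lower on every aged MR-intact array, with a difference between the genotypes of 1.54. That same value, 1.54, separates knockout against MR-intact in aged mice from that in young mice, since both are 1 quantity of the model. Its limma adjusted p was 0.609.

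Every knockout array lay below every MR-intact array for Dnajb5 in aged mice and above every one in young mice, a difference of -0.61 with a limma adjusted p of 0.609.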

How the results depend on the processing

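No paired analysis was possible because the replicate numbers follow accession order and only name an array. Of 982 alternative values for 60 results on single members, 922 kept their direction and their side of the threshold, 46 passed the threshold where the reported value had not, 6 no longer passed it, and 8 changed sign. The count of members called with age in knockout mice, 1 as reported, was 2 with a trended robust prior (2.86%, against 0.796% of all genes). It was 2 without the dimmest tercile (3.12% of 64, against 1.7%) and 0 with the knockout groups alone (against 0.00471%). On leaving out each array it was 0 to 4. It was 0 without young knockout array 1, 2 or 3 (against 0.132%, 0.066% and 0.994%). Without aged knockout array 3 it was 4 (5.71%, against 4.17%). With 1 aged knockout array kept, the spread comes from the other groups and the lone array is assumed to vary like them. The count was then 16 with array 2 (22.9%, against 13.1% of all genes) and 0 with array 3 (against 0.24%). For MR-intact mice it was 3 with array weights (4.29%, against 2.3% of all genes) and 0 as reported. For knockout in aged mice it was 1 after centring (1.43%, against 0.542%), 0 to 8 on leaving out each array (8 without aged knockout array 3, 11.4% against 6.79%), 1 with array 1 alone (1.43%, against 4.49%) and 20 with array 2 alone (28.6%, against 18.2%). For the difference in aging it was 0 to 1 on leaving out each array (1 without aged knockout array 3, 1.43% against 0.0754%).

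The median difference over the members with age in knockout mice was -0.00945 after centring, -0.0301 with array 1 alone and 0.10 with array 2 alone. For knockout in aged mice it was -0.0502, -0.0724 and 0.0515 in the same settings, and for the difference in aging it was -0.0298 with array 1 alone. Changes of sign with age in knockout mice were Hspd1 at -0.10 with array 1 alone, and Hspa1a at 0.0282 and Dnajb5 at 0.0027 with array 3 alone. With array 1 alone, Dnajb1 at -0.0380 and Hsph1 at -0.18 changed sign for knockout in aged mice, and Hsph1 at -0.10 for the difference in aging. Hspa1l at 0.0809 did so there with array 3 alone, and Hspa1a at -0.16 for knockout in young mice without young knockout array 2 (-0.16 to 0.33 over each array left out). The cause of these changes was not tested. Over all genes, calls with age in knockout mice numbered 156 as reported, 271 after quantile scaling, 241 without the dimmest tercile, 1 with the knockout groups alone and 14 (without young knockout array 2) to 885 (without aged knockout array 3) on leaving out each array. In MR-intact mice they numbered 50 as reported, 489 with array weights and 14 to 104 on leaving out each array. For knockout in aged mice they numbered 12 as reported, 115 after centring, 24 after quantile scaling, 23 with a trended robust prior, 5 with array weights, 5 without the dimmest tercile, 0 with the aged groups alone and 3 to 1442 on leaving out each array (1442 without aged knockout array 3, 196 without aged MR-intact array 2). For the difference in aging they numbered 0 as reported, 16 without aged knockout array 3, and 495 and 1909 with array 1 or array 2 alone, where those with age in knockout mice numbered 993 and 2777 and those for knockout in aged mice 953 and 3861.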
